A study of Mus musculus with 15 samples.

Results

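The ubiquitin-specific proteases (USPs), the largest class of mouse deubiquitinases, were followed in NIH3T3 cells after an unfolded protein was made to appear in them. Members were chosen by symbol alone, as every RefSeq gene named Usp followed by a number, without regard to measured values. Of the 49 symbols that matched, 2 were left out, which left 47 of the 20207 genes in the tables. With at least 1 count in every one of the 15 samples, 40 of the 47 could be tested, among 10276 genes tested in all. The symbol rule also took in Usp6nl, which encodes a GTPase-activating protein for Rab proteins and no protease, and Usp39 and Usp52, whose products lack protease activity.

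mRNA was measured in NIH3T3, a mouse embryonic fibroblast line. The cells stably expressed DD-sfGFP, in which superfolder GFP carries a destabilizing domain (DD) made from FKBP. This domain keeps its fold only as long as it holds the ligand Shield-1 (S1), and removal of S1 leaves it unfolded. The comparisons asked which USP transcripts changed, and when, after that.

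The control group (cont, no stress, time 0) had 5 samples. The groups after S1 removal had 3 samples at 45 min (DD 45min), 3 at 135 min (DD 135min) and 4 at 405 min (DD 405min). Every sample, controls included, carried DD-sfGFP, and the controls were kept in S1. To remove S1, the study's methods state, an FKBP variant protein that takes up the ligand was put in the medium, and the cells had been sorted for high GFP. All groups therefore stand for a single engineered line with a strongly expressed transgene. Whether samples of a group came from separate cultures is not given in the labels, so p-values measure the spread between these samples, which may be technical.

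Deubiquitinases cut ubiquitin from proteins or take apart ubiquitin chains, and thereby reverse the work of the ubiquitin ligases that mark proteins for the proteasome, for sorting at membranes or for signalling. USP enzymes share a catalytic fold around a cysteine and differ in the domains that bring them to a place or a partner, such as the proteasome, chromatin, endosomes or mitochondria. Because degradation of an unfolded DD runs through ubiquitin and the proteasome, members at either end of that route are of interest here.

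Total counts ran from 6652685 (control replicate 3) to 30258578 per library, and 22 pairs of replicates all differed by more than sampling noise (chi-square per degree of freedom 12.0 to 274). All 8 fibroblast markers were present, with a summed level of 14800 to 19500 CPM (counts scaled to a common library total) in control and 12100 to 17700 CPM at 405 min, where 4 of the 8 were lower by edgeR. Markers of epithelium, blood cells, endothelium, muscle and neurons (11 genes) summed to at most 3.91 CPM in any library. Whether the lower fibroblast markers bear on the values of the members was not tested, and in bulk RNA a change in cell number cannot be told apart from a change in RNA per cell. The libraries fell into 2 sets by how log2 CPM depended on exonic GC content, with slopes of -1.444 to -0.684 per 10 percentage points in set 1 (10 libraries) and -0.399 to 0.016 in set 2 (5 libraries). Set 2 held control replicate 2, 45-min replicate 3 and 405-min replicates 1, 2 and 4, so 3 of the 4 405-min samples but only 1 of the 5 controls belonged to it, and the set and the time point are partly confounded. The study's methods describe libraries made step by step from separate reagents and, in addition, with a NuGEN kit. The labels name only the kit, for every sample, so the method cannot be tied to the sets, and what sets the libraries apart was not tested. Counts of members called at 405 min, and the values of those called, are given both with group alone and with the library set added as a term. Other values at 405 min are with group alone unless the set is named.

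In control cells the members differed widely in level on the RPKM scale, which corrects reads for transcript length and depth. Of the 40 tested members, 10 lay above 10 RPKM and 5 under 1 RPKM, with the other 25 in between. The median member had 4.69 RPKM, against 5.05 RPKM for the median of all tested genes. Usp1, which removes ubiquitin from the DNA repair proteins Fancd2 and PCNA, had the highest mean, 62.6 RPKM ± 18.1 (SD, n = 5). Usp47 at 41.0 RPKM ± 7.93, Usp15 at 37.4 RPKM ± 9.44 and Usp7 at 27.7 RPKM ± 8.61 followed, and the ranges of each neighbour in that order overlapped over the 5 control samples. Usp13, Usp20 and Usp27x were the lowest, with means of 0.443, 0.474 and 0.498 RPKM.

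**Figure D1:**
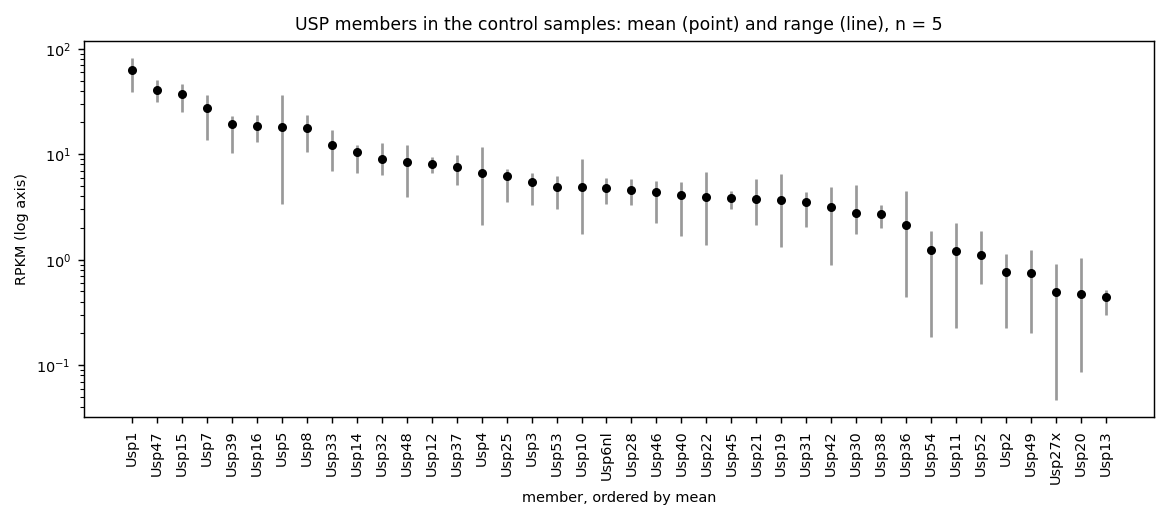
Level of the 40 tested USP members in the 5 control samples, in RPKM on a log axis, with the mean as a point and the range over samples as a line. The means run from 62.6 RPKM for Usp1 to 0.443 RPKM for Usp13, and the lines of neighbours overlap.

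The 7 members under the count filter were Usp18, Usp26, Usp29, Usp43, Usp44, Usp50 and Usp51. Their counts lay between 0 and 56 in any library, and each was at 0 in at least 1 of the 15 libraries. Usp18, which removes the interferon-induced modifier ISG15, had 23 counts in control replicate 1 and at most 9 in any other library. Usp29 had the highest count among the 7, 56 in 135-min replicate 3, where the other 135-min libraries held 21 and 11. Nothing can be said of a change in these members at this depth.

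The family's summed level hardly moved: 3390 CPM ± 154 (SD, n = 5) in control, 3300 CPM ± 200 (n = 3) at 45 min, 3340 CPM ± 88.9 (n = 3) at 135 min and 3410 CPM ± 159 (n = 4) at 405 min. All of these differences were smaller than the spread between replicates.

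At 45 min no member passed the test. By edgeR's quasi-likelihood test 0 of 40 members passed an adjusted p of 0.05, as did 0.0% of all genes tested. With group alone in edgeR none of the 40 had an unadjusted p under 0.05. DESeq2 also called 0 (0.0584% of all genes), with 1 member at an unadjusted p under 0.05. With the library set as a term edgeR called 0 members (0.0389% of all genes), with 3 at an unadjusted p under 0.05. Within library set 1 alone it called 0 members and 0.0% of all genes, with 6 members at an unadjusted p under 0.05. Fitted log2 fold changes ran from -0.41 (Usp45) to 0.82 (Usp20), with a median of -0.05.

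At 135 min edgeR again called 0 of 40 members, where 1.46% of all genes passed. Unadjusted p-values under 0.05 were seen for 6 members. Usp14, Usp13, Usp3 and Usp31 had higher values, and Usp53 and Usp52 had lower ones. The alternative test, DESeq2, called 4 of 40 members, where it called 4.18% of all genes, with Usp14 (log2 fold change 0.35, adjusted p = 0.0334), Usp3 (0.42, adjusted p = 0.0473) and Usp31 (0.54, adjusted p = 0.00204) up and Usp53 (-0.56, adjusted p = 0.00702) down. All 135-min samples lay above all controls for Usp13, Usp14, Usp3 and Usp31 (4 of 40 members, against 3.58% of all genes) and below them for Usp53 (1 of 40, against 5.47%). With the library set as a term edgeR called 3 members, Usp31 up and Usp1 and Usp53 down, which is 7.5% of the members beside 7.93% of all genes. The same 3 were called within library set 1 alone, which held all 135-min samples and 4 controls and where 5.68% of all genes were called.

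At 405 min 13 members had changed by edgeR, 8 up and 5 down. The 8 that rose were Usp5, Usp13, Usp14, Usp3, Usp27x, Usp19, Usp20 and Usp45, or 20.0% of the tested members beside 9.99% of all genes. The 5 that fell were Usp1, Usp12, Usp25, Usp46 and Usp47 (12.5% beside 13.4% of all genes). The median log2 fold change was 0.18 over the members and 0.00 over all genes. Fold changes come from a model with TMM scaling. Scaled by library totals alone, as the CPM values are, the median ratio of 405 min to control over all genes was 0.11 on the log2 scale, so ratios of the CPM given below sit that much above the fitted values. With the library set as a term, 6 members were up (6.17% of all genes) and 1 down (6.87% of all genes), and the median member was at 0.01. Within set 2 alone, with a single control, Usp14, Usp3 and Usp45 passed (3 of 40, against 4.43% of all genes). Within set 1 alone, with a single 405-min sample, edgeR called 0 members, with 9 at an unadjusted p under 0.05, and 2.11% of all genes. DESeq2 called 10 members up and 6 down, beside 14.0% and 19.2% of all genes. The comparisons of each time point share the 5 control samples.

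**Figure D2:**
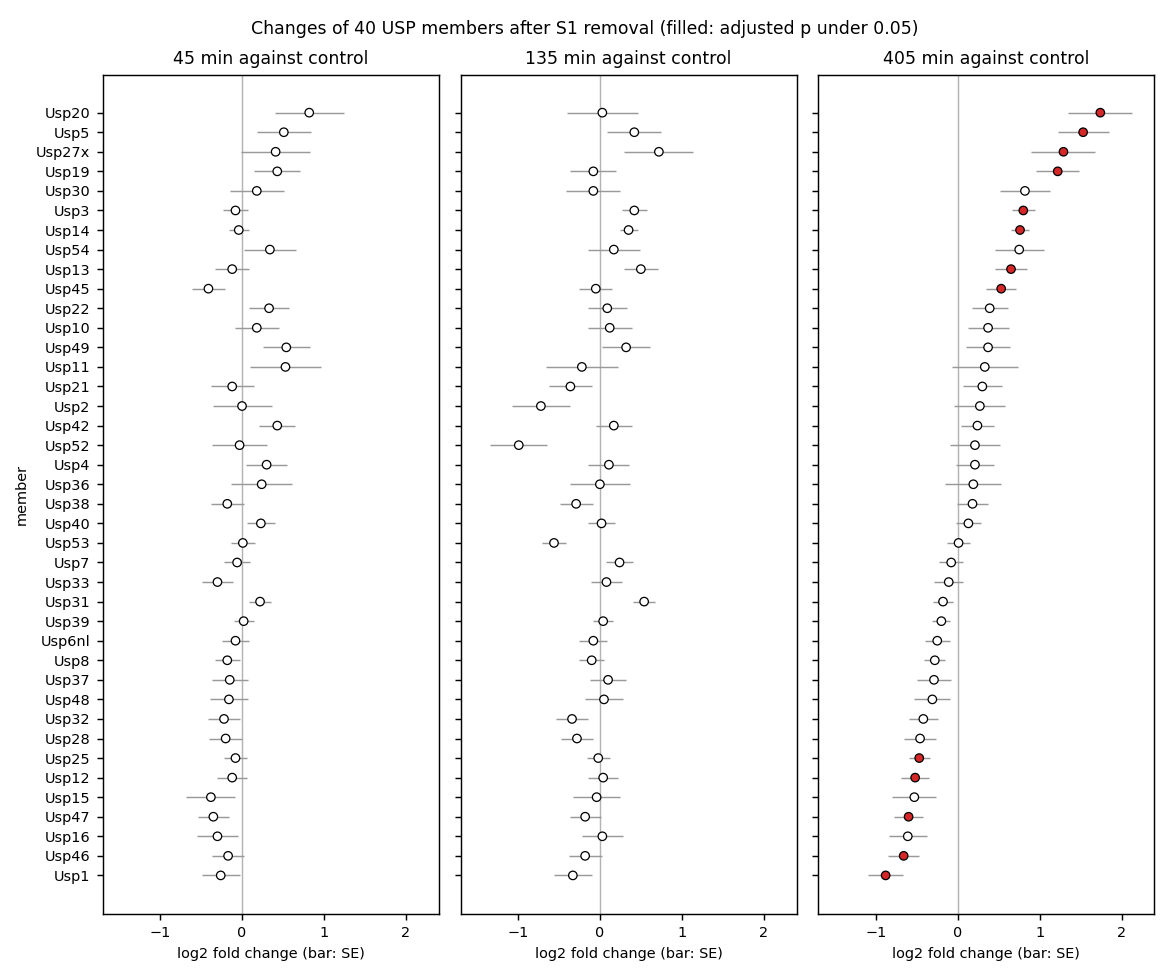
Log2 fold change of the 40 tested members at 45, 135 and 405 min against control, with SE bars, ordered by the value at 405 min. Filled points passed an adjusted p of 0.05 in edgeR with group alone in the model, and they appear only in the 405-min panel, 8 to the right of 0 and 5 to the left.

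The 3 members listed for the proteasome and free ubiquitin chains all rose at 405 min, with a median log2 fold change of 0.76. That is 3 of 3, beside 9.99% of all genes, in a list chosen with earlier results of these data known. With the library set as a term 2 of 3 were up, beside 6.17% of all genes. Usp14 (chr18:9993613-10030147, mm9) is bound to the proteasome's regulatory particle and trims chains from substrates there. Its level was 93.0, 101, 96.1, 99.0 and 85.1 CPM in the controls, 98.9, 98.8 and 94.1 CPM at 45 min, 123, 120 and 118 CPM at 135 min, and 171, 177, 165 and 186 CPM at 405 min. The 45-min samples lay among the controls, every 135-min sample was above them, and every 405-min sample was above those. The log2 fold change at 405 min was 0.76 ± 0.11 (SE, adjusted p = 0.000361), and it was 0.80 ± 0.11 (adjusted p = 0.000168) with the library set as a term. Between 135 and 405 min the difference of 0.41 ± 0.12 did not pass (adjusted p = 0.0627).

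Usp5 (chr6:124765037-124779465), also called isopeptidase T, takes apart free ubiquitin chains from the end left when they come off a substrate. It stood at 107, 230, 37.7, 87.9 and 122 CPM in the controls, 167, 135 and 211 CPM at 45 min, 147, 144 and 159 CPM at 135 min, and 389, 382, 265 and 391 CPM at 405 min. All 405-min samples were above all others. The controls were widely spread, with the lowest in the shallowest library and the highest in the only control of library set 2. The set 1 sample at 405 min, at 265 CPM, was above the 4 set 1 controls, and the set 2 samples were above the set 2 control. The log2 fold change was 1.53 ± 0.31 (adjusted p = 0.00411), and 1.20 ± 0.24 (adjusted p = 0.00328) with the set as a term.

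Usp13 (chr3:32716548-32834179), a close relative of Usp5, was among the least abundant members. Control samples held 4.29, 4.27, 4.96, 4.95 and 4.22 CPM, the 45-min samples 4.06, 4.22 and 4.91 CPM, the 135-min samples 6.60, 6.16 and 6.31 CPM, and the 405-min samples 8.19, 7.67, 7.76 and 7.29 CPM. Both later groups lay wholly above the controls, although the counts behind these values were only 33 to 80 in control and 80 to 156 at 405 min. The change at 405 min was 0.65 ± 0.19 on the log2 scale (adjusted p = 0.0273), and 0.70 ± 0.23 with the set as a term, where it just missed the threshold (adjusted p = 0.0541).

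Among the enzymes that remove ubiquitin from histones H2A and H2B, 2 of 7 tested members rose (28.6%, beside 9.99% of all genes) and 0 fell by edgeR. With the library set as a term 1 of 7 rose (14.3%, beside 6.17% of all genes) and 0 fell. Usp3 (chr9:66365688-66440787) acts on both histones. Its values were 24.8, 25.7, 25.7, 26.7 and 26.1 CPM in the controls, 20.9, 29.5 and 27.2 CPM at 45 min, 36.0, 32.8 and 34.0 CPM at 135 min, and 50.6, 49.3, 43.6 and 51.8 CPM at 405 min. The controls were within 2 CPM of each other, and the 135-min and 405-min groups formed separate, higher steps. The log2 fold change at 405 min was 0.80 ± 0.14 (adjusted p = 0.00151), and 0.81 ± 0.15 (adjusted p = 0.00166) with the set as a term.

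Usp27x (chrX:6949719-6953400) is an X-linked relative of Usp22 that can take the place of Usp22 on the same cofactors. Its low levels were 3.73, 5.65, 0.601, 2.06 and 6 CPM in the controls, 4.23, 5.38 and 5.48 CPM at 45 min, 6.72, 4.82 and 6.06 CPM at 135 min, and 10.3, 9.73, 8.24 and 9.92 CPM at 405 min. All 405-min samples were above the rest, and the lowest control rested on 4 counts. The log2 fold change was 1.29 ± 0.39 (adjusted p = 0.0289), and 1.10 ± 0.40 with the set as a term, which did not pass (adjusted p = 0.0813). Usp22 itself, the protease of the SAGA coactivator complex, had 34.9 CPM ± 14.1 in control and 48.9 CPM ± 9.15 at 405 min, a difference of 0.39 ± 0.22 that did not pass (adjusted p = 0.186). Usp16, an H2A protease, gave the only negative value of the list, -0.61 ± 0.23, which did not pass by edgeR (adjusted p = 0.0638) and did by DESeq2 (-0.63, adjusted p = 0.0382).

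Of the 7 tested members tied to membranes, 2 rose at 405 min (28.6%, beside 9.99% of all genes), Usp19 and Usp20. By edgeR 0 fell, and 4 of the 7 had a negative fitted value. With the library set as a term 2 of 7 rose (28.6%, beside 6.17% of all genes) and 0 fell. Usp19 (chr9:108393079-108404030), which has a form anchored in the ER membrane, read 31.2, 59.1, 21.3, 32.1 and 33.6 CPM in the controls, 37.0, 39.7 and 73.4 CPM at 45 min, 33.5, 36.0 and 28.7 CPM at 135 min, and 121, 73.7, 57.2 and 104 CPM at 405 min. Here the groups overlapped, because the set 2 control at 59.1 CPM was above the set 1 sample at 405 min, but within each library set every 405-min sample was above every control. Its log2 fold change at 405 min was 1.22 ± 0.26 (adjusted p = 0.0055), and 0.80 ± 0.16 (adjusted p = 0.00342) with the set as a term.

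Usp20 (chr2:30851564-30879104), which acts on internalized receptors with its relative Usp33, was read at 3.45, 10.2, 1.5, 4.69 and 4.06 CPM in the controls, 6.48, 6.22 and 14.0 CPM at 45 min, 6.25, 3.53 and 4.63 CPM at 135 min, and 20.3, 16.1, 11.1 and 21.4 CPM at 405 min. In each of the first 2 groups the single library of set 2 was the highest. Every 405-min sample was above every control. The log2 fold change at 405 min was the largest of the family, 1.74 ± 0.39 (adjusted p = 0.00778), and it was 1.25 ± 0.28 (adjusted p = 0.00693) with the set as a term.

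The remaining membrane members did not pass by edgeR. Usp30, a protease of the mitochondrial outer membrane, came closest, with 16.8 CPM ± 6.94 in control and 31.9 CPM ± 10.5 at 405 min (log2 fold change 0.82 ± 0.31, adjusted p = 0.0621). It passed when control replicate 2 (adjusted p = 0.011) or 405-min replicate 3 (0.0191) was left out, and by DESeq2 with all libraries (0.81, adjusted p = 0.0359). Usp8, which acts on cargo at endosomes together with Stam, differed by -0.28 ± 0.13 (adjusted p = 0.129), and Usp6nl by -0.25 ± 0.15 (adjusted p = 0.234).

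Usp45 (chr4:21703417-21765019), which acts on the DNA repair nuclease subunit Ercc1, belongs to none of these lists. It had 49.1, 39.2, 63.7, 53.6 and 48.2 CPM in the controls, 40.7, 43.9 and 36.6 CPM at 45 min, 45.6, 51.9 and 49.9 CPM at 135 min, and 71.4, 86.2, 89.2 and 72.8 CPM at 405 min. The 405-min samples were above all others, while the 45-min and 135-min samples lay within or just under the control range. The log2 fold change of 0.53 ± 0.18 was close to the threshold (adjusted p = 0.0476), and it was larger, 0.77 ± 0.16 (adjusted p = 0.00412), with the set as a term.

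**Figure D3:**
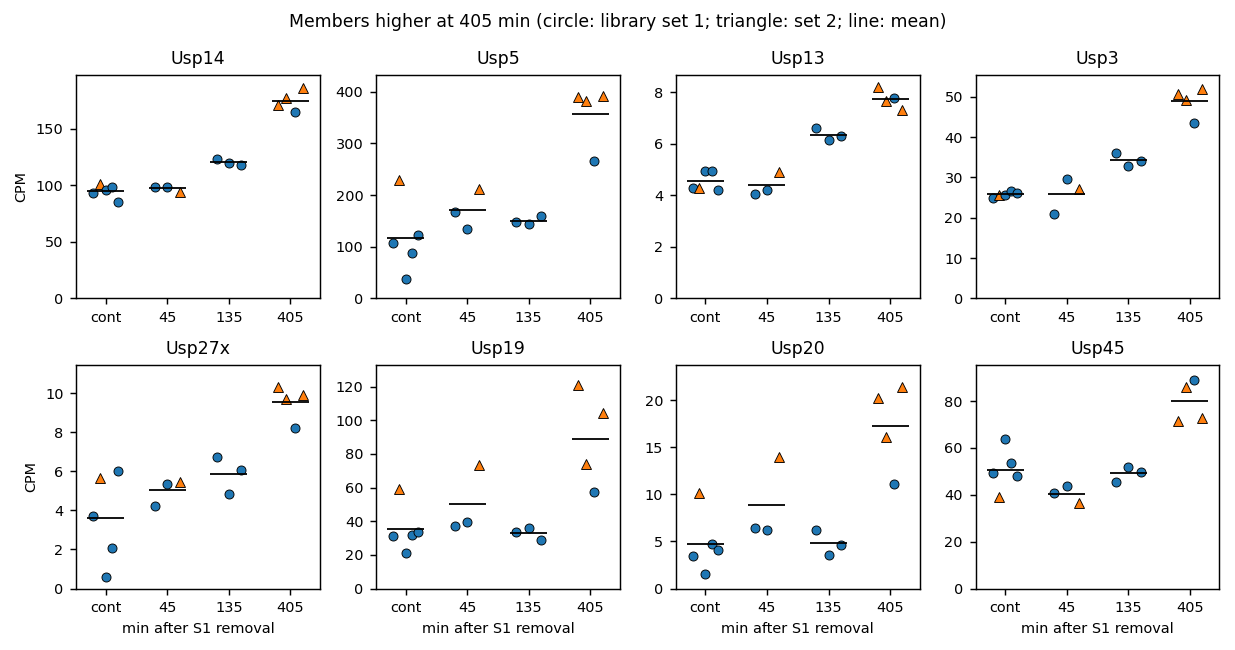
CPM in every sample for the 8 members that rose at 405 min, by minutes after S1 removal, with library set 1 as circles, set 2 as triangles and the group mean as a line. For Usp14, Usp5, Usp13, Usp3, Usp27x, Usp20 and Usp45 the 4 samples at 405 min lie above all 5 controls, and for Usp19 the set 2 control at 59.1 CPM overlaps the lowest of them.

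All 405-min samples lay above all controls for 7 of 40 members, against 7.57% of all genes, and below all controls for 3 of 40, against 5.74%.

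The 3 enzymes listed as switched on by the WD-repeat protein Wdr48 all fell with group alone in the model, with a median log2 fold change of -0.66. That is 3 of 3, beside 13.4% of all genes, in a list chosen with earlier results of these data known. With the library set as a term 1 of 3 was down, beside 6.87% of all genes. Usp1 (chr4:98590501-98602224) was measured at 492, 353, 486, 563 and 521 CPM in the controls, 446, 493 and 335 CPM at 45 min, 377, 416 and 359 CPM at 135 min, and 212, 291, 380 and 260 CPM at 405 min. The groups overlapped, since the set 2 control at 353 CPM was under the set 1 sample at 405 min, and within each set every 405-min sample was under every control. Its log2 value fell by 0.88 ± 0.21 (adjusted p = 0.0112). With the set as a term it fell by 0.52 ± 0.12 at 405 min (adjusted p = 0.0107) and by 0.44 ± 0.12 at 135 min (adjusted p = 0.0364).

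Usp12 (chr5:147546388-147606532) and Usp46 (chr5:74396062-74464436) are near relatives of each other that need Wdr48 for activity. Usp12 had 68.5, 69.0, 98.8, 74.4 and 71 CPM in the controls, 79.6, 77.2 and 66.9 CPM at 45 min, 77.4, 71.3 and 87.7 CPM at 135 min, and 56.5, 58.2, 60.5 and 57.7 CPM at 405 min. The 405-min samples were close together and under all others, and control replicate 3 stood above the rest of its group. Usp46 had 37.9, 26.9, 25.1, 35.0 and 27.7 CPM in the controls, 27.5, 26.8 and 31.7 CPM at 45 min, 27.7, 26.9 and 25.8 CPM at 135 min, and 24.0, 14.4, 24.5 and 21.4 CPM at 405 min. Its groups were apart by less than 1 CPM at their edges. The fitted values fell by 0.52 ± 0.17 for Usp12 (adjusted p = 0.0359) and by 0.66 ± 0.19 for Usp46 (adjusted p = 0.0241), and neither passed with the set as a term (-0.35, adjusted p = 0.158, and -0.53, adjusted p = 0.0783). Wdr48 mRNA did not pass, at 64.1 CPM ± 16.6 in control and 77.4 CPM ± 8.23 at 405 min (0.17 ± 0.16, adjusted p = 0.438).

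The other members that fell were Usp25, a relative of Usp28 that takes part in innate immune signalling, and Usp47, a relative of Usp7 that acts on DNA polymerase beta. Usp25 (chr16:77014314-77117025) had 65.4, 55.9, 54.7, 60.7 and 56.6 CPM in the controls, 54.3, 60.3 and 60.5 CPM at 45 min, 58.5, 65.2 and 49.2 CPM at 135 min, and 43.4, 41.8, 48.6 and 49.8 CPM at 405 min. All 405-min samples were under all controls. Usp47 (chr7:119167020-119254894) had 498, 380, 605, 519 and 499 CPM in the controls, 416, 470 and 364 CPM at 45 min, 454, 454 and 428 CPM at 135 min, and 312, 389, 412 and 328 CPM at 405 min. Its groups overlapped, and the lowest control was the one of set 2. Usp25 fell by 0.47 ± 0.13 (adjusted p = 0.0221) and Usp47 by 0.60 ± 0.18 (adjusted p = 0.0278) on the log2 scale. With the set as a term neither passed (Usp25 -0.38, adjusted p = 0.0681, and Usp47 -0.33, adjusted p = 0.135).

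Of the members that act on p53 or on its ligase Mdm2, 0 of 8 passed at 405 min by edgeR and 0 by DESeq2. Over all genes 23.4% passed by edgeR and 33.2% by DESeq2. Fitted values of the 8 members ran from -0.53 (Usp15) to 0.37 (Usp10). Usp28 alone had an unadjusted p under 0.05 (log2 fold change -0.46, adjusted p = 0.0831). Usp7, which stabilizes both proteins, had 319 CPM ± 42.9 in control and 327 CPM ± 42.1 at 405 min (-0.08 ± 0.15, adjusted p = 0.709). Usp10, a cytoplasmic p53 protease, differed by 0.37 ± 0.25 (adjusted p = 0.256), Usp15 by -0.53 ± 0.27 (adjusted p = 0.152) and Usp2 by 0.27 ± 0.31 (adjusted p = 0.522). With the library set as a term 0 of 8 passed, beside 13.0% of all genes. Of the 8 fitted values 2 were then positive and 6 negative, against 5 and 3 with group alone. Usp7, Usp10 and Usp2 were among those whose sign turned. Of the members linked to splicing 0 of 3 passed by edgeR and 0 by DESeq2, beside the same shares of all genes. In edgeR with group alone 0 of the 3 had an unadjusted p under 0.05, and by DESeq2 1 did. With the library set as a term 0 of 3 passed, beside 13.0% of all genes. Usp39, a part of the spliceosome's tri-snRNP, had 92.6 CPM ± 8.05 in control and 87.5 CPM ± 4.07 at 405 min. With group alone this was -0.20 ± 0.11 (adjusted p = 0.183).

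Between 135 and 405 min edgeR called 4 of 40 members, where 5.06% of all genes passed. Usp19 (log2 difference 1.31 ± 0.30, adjusted p = 0.0262) and Usp20 (1.71 ± 0.46, adjusted p = 0.0465) were higher at 405 min, having been near control at 135 min. Usp31 and Usp53 had moved away from control at 135 min. At 405 min their fitted values with group alone were near control (-0.18, adjusted p = 0.271, and 0.01, adjusted p = 0.951). Within each library set, however, their 405-min samples lay past the controls on the other side.

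Usp31 (chr7:128785536-128850767) had 74.0, 88.9, 72.2, 82.5 and 72.4 CPM in the controls, 89.3, 97.6 and 99.4 CPM at 45 min, 119, 120 and 99.5 CPM at 135 min, and 81.5, 82.0, 58.5 and 77.0 CPM at 405 min. Every 45-min and 135-min sample was above every control, and the 405-min samples overlapped the controls or lay under them. Within each library set every 405-min sample was under every control. From 135 to 405 min it fell by 0.72 ± 0.14 on the log2 scale (adjusted p = 0.0113). Against control at 135 min it was at 0.54 ± 0.13, short of the threshold (adjusted p = 0.0582), and passed with the set as a term (0.57 ± 0.12, adjusted p = 0.00867).

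Usp53 (chr3:122636519-122687365), a protein of tight junctions, showed the opposite course. It had 47.0, 37.7, 43.0, 42.4 and 44.1 CPM in the controls, 40.7, 49.9 and 45.6 CPM at 45 min, 28.8, 30.3 and 27.6 CPM at 135 min, and 42.5, 47.0, 48.9 and 49.7 CPM at 405 min. The 135-min samples were lower than all others. Within each library set every 405-min sample was above every control. From 135 to 405 min it rose by 0.58 ± 0.16 (adjusted p = 0.0492). At 135 min it was at -0.56 ± 0.15 against control (adjusted p = 0.0997), and at -0.60 ± 0.13 with the set as a term (adjusted p = 0.0117).

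Tested jointly over the 3 time points by an F-test, 7 of 40 members passed, where 9.69% of all genes passed. They were Usp14, Usp5, Usp3, Usp19, Usp20, Usp45 and Usp31.

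**Figure D4:**
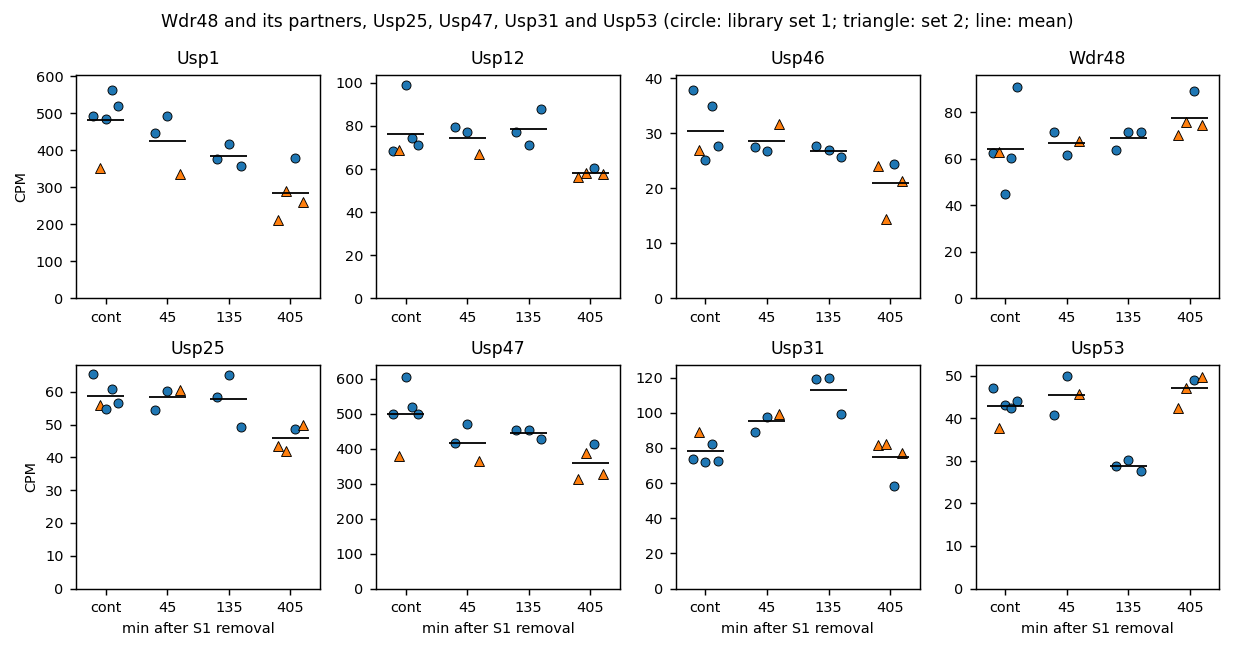
CPM in every sample for Usp1, Usp12 and Usp46, their activator Wdr48, and Usp25, Usp47, Usp31 and Usp53, by minutes after S1 removal, with library set 1 as circles, set 2 as triangles and the group mean as a line. Usp12, Usp46 and Usp25 are under all controls at 405 min, while Usp31 peaks and Usp53 dips at 135 min.

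The calls at 405 min differed in how far they rested on single libraries. Those of Usp14, Usp5, Usp3, Usp19, Usp20 and Usp1 passed in all 15 refits that left out 1 library. Without control replicate 1 or 4, or 405-min replicate 1, 2 or 4, Usp27x was at an adjusted p of 0.0558 to 0.0769. Usp13 was at 0.0555 to 0.0803 without control replicate 1 or 405-min replicate 1, 2 or 4, and passed only narrowly without control replicate 5 (0.05 after rounding). Usp45 passed in 3 of the 15 refits and was at 0.0541 to 0.119 in the rest, which left out control replicates 1, 4 and 5, 45-min replicates 1 and 2 and each of the 135-min and 405-min samples in turn. Usp12 was at 0.0502 to 0.0992 without control replicate 3 or 4 or 405-min replicate 1, 2 or 4. Usp25 was at 0.051 to 0.0735 without control replicate 1 or 4 or 405-min replicate 1, 2 or 4, Usp46 at 0.0593 to 0.0764 without control replicate 1 or 4 or 405-min replicate 2 or 4, and Usp47 at 0.052 to 0.0945 without control replicate 1, 3 or 4 or 405-min replicate 1, 2 or 4. Without control replicate 2 the family had 12 members up and 10 down, and Usp10, Usp22, Usp15, Usp30 and Usp8 were then among those that passed. The share of all genes called in that refit is not given here.

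The difference between 135 and 405 min was more fragile. Usp31 stayed under the threshold in 13 of 15 refits, the exceptions being 135-min replicate 1 (adjusted p = 0.0713) and 135-min replicate 2 (0.0746). Usp19 passed in 10 and was at 0.0777 to 0.118 without any 135-min sample or 405-min replicate 1 or 4. Usp20 passed in 4 and reached 0.191 without 135-min replicate 2, and Usp53 passed in 3 and reached 0.171 without 135-min replicate 1. With the library set as a term 3 members passed between 135 and 405 min (7.5%, beside 3.68% of all genes). They were Usp31 (adjusted p = 0.00708), Usp53 (0.018) and Usp45 (0.89, adjusted p = 0.018), and Usp19 and Usp20 did not.

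The changes of the members at 405 min went with the GC content of their exons. Members that rose had a median exonic GC content of 50.3% (39.5% to 57.4%, n = 8), those that fell 43.8% (42.6% to 49.3%, n = 5), all tested members 46.9% and all tested genes 49.1%. Across the 39 members with a value, GC content and log2 fold change had a Pearson correlation of 0.58 with group alone, 0.28 after adding the library set and 0.15 with a GC offset, and across 9836 genes it was 0.43 with group alone. These correlations are across genes that share the same libraries and are given as a description. Of the risers, Usp14 at 39.6% and Usp45 at 39.5% had the lowest GC contents among the tested members. With group alone they were at 0.76 ± 0.11 and 0.53 ± 0.18. With the GC offset they were higher, at 1.28 ± 0.19 (adjusted p = 0.000391) and 1.09 ± 0.12 (adjusted p = 3.15e-05). Whether the offset corrects too far at the edge of the GC range was not tested. Usp25 and Usp46, at 42.6% and 43.8% GC, lost their calls with that offset (-0.08, adjusted p = 0.727, and -0.30, adjusted p = 0.252), and Usp1 kept its own (-0.53 ± 0.11, adjusted p = 0.0027).

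**Figure D5:**
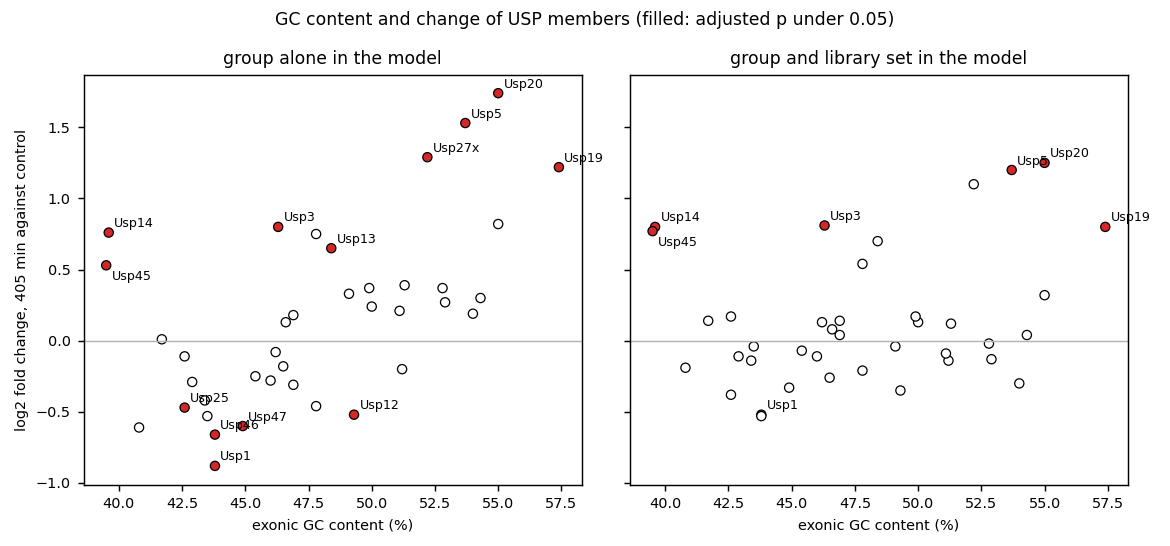
Log2 fold change at 405 min against control of the members by exonic GC content in percent, with group alone in the model on the left and with the library set added on the right. Filled, named points passed an adjusted p of 0.05, 13 on the left and 7 on the right, and the Pearson correlation is 0.58 on the left and 0.28 on the right.

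Promoter sequence was searched for the core of the antioxidant response element, TGACNNNGC, on both strands, in the 250 bases before each start site. Of the 47 members, 35 had a RefSeq window (GRCm38.p6), and 5 of these held the motif (Usp13, Usp20, Usp25, Usp26 and Usp36), beside 10.2% of all 32851 windows. A pair of heat shock element units, GAANNTTC, searched in the same way and counted on its own, was in none of the member windows and in 6.7% of all windows. The windows of the 3 members that both held the motif and changed at 405 min are shown, with the matching bases in capitals, so that its place can be compared between the risers Usp13 and Usp20 and the faller Usp25. All 3 lie on the plus strand.
Usp13, chr3:32817376-32817625 (motif at -101 to -93 from the start site): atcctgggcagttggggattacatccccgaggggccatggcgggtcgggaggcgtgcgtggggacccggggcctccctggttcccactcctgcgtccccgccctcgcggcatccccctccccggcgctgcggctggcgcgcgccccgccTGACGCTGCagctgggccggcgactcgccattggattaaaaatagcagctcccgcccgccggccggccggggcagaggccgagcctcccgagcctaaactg
Usp20, chr2:30982029-30982278 (motif at -25 to -17): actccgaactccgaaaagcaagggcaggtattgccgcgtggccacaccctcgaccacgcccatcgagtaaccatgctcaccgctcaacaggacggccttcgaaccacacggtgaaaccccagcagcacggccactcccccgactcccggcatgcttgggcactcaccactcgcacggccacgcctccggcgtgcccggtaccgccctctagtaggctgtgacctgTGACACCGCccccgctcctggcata
Usp25, chr16:77013819-77014068 (motif at -242 to -234): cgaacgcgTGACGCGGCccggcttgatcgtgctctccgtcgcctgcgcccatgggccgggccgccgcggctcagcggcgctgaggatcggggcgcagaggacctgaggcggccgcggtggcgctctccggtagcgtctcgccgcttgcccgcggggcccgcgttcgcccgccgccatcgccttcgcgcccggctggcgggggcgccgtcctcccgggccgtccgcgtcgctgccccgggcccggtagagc
The motif stood at a different distance from the start in each window. A match is a description of letters, and binding was not measured here.

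Other deubiquitinases and the partners of USP enzymes were read from fixed lists for comparison. The list of deubiquitinases went by protein class, and activity on ubiquitin was not checked for each gene. Of its 31 tested genes, all outside the symbol rule, edgeR called 0 at 135 min, beside 1.46% of all genes. At that time 5 had an unadjusted p under 0.05, and DESeq2 called 1, or 3.23% beside 4.18%. At 405 min edgeR called 11. These were 6 up (19.4%) and 5 down (16.1%), beside 9.99% and 13.4% of all genes. Among those called the largest changes were falls, of 1.49 ± 0.51 for Uchl5, another protease of the proteasome's regulatory particle (adjusted p = 0.0469), and of 1.01 ± 0.23 for Uchl3 (adjusted p = 0.00759). Cyld (-0.69), Stambpl1 (-0.60) and Otud4 (-0.56) were also lower. Eif3h (0.83), Cops5 (0.63), the protease subunit of the COP9 signalosome, Bap1 (0.60), Vcpip1 (0.54), Otud5 (0.49) and Eif3f (0.43) were higher. With the set as a term 3 were up (9.68%, beside 6.17% of all genes) and 2 down (6.45%, beside 6.87%). Among them were Cops5 (0.82, adjusted p = 0.0105), Vcpip1 (0.55, adjusted p = 0.0174) and Uchl3 (-0.60, adjusted p = 0.00915). Uchl5 (-0.52) no longer passed (adjusted p = 0.217), and neither did Cyld, Stambpl1, Bap1 and Otud5.

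Of 12 tested cofactors, 2 rose (16.7%, beside 9.99% of all genes) and 3 fell (25.0%, beside 13.4%) at 405 min. With the set as a term 2 rose (16.7%, beside 6.17% of all genes) and 2 fell (16.7%, beside 6.87%). Psmd2, the proteasome subunit on which Usp14 docks, had 259 CPM ± 85.2 in control and 653 CPM ± 91.5 at 405 min (1.24 ± 0.17, adjusted p = 0.000305, and 1.04 ± 0.14 with the set as a term). The stress granule proteins that bind Usp10, G3bp1 (-0.66 ± 0.15, adjusted p = 0.00828) and G3bp2 (-0.54 ± 0.14, adjusted p = 0.015), were lower. In the module that holds Usp22, Atxn7 was higher (0.70 ± 0.17, adjusted p = 0.0117) and Eny2 lower (-1.83 ± 0.53, adjusted p = 0.0256), and Eny2 did not pass with the set as a term (-0.84, adjusted p = 0.0825).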

How the data were processed

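Poly(A) RNA of 15 samples was sequenced, and each sample had 1 table of RefSeq genes. On the DNAnexus platform the authors aligned reads to mm9 and counted them for RefSeq genes. The aligner and any use of strand are not given in the sources used here. The read counts deposited by the authors were expected counts, fractional in 8.7% to 15.6% of genes per sample. They were rounded, since the planned test assumed whole counts. The authors also deposited RPKM, used here only for control levels. The Z-score they deposited (RPKM less the sample mean over the SD, a score made by the authors) and a deposited ratio of RPKM to its root mean square were not used. Groups and replicate numbers came from the sample titles.

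CPM was the rounded count scaled by the library total. As in the study's methods, genes with a zero count in any sample were removed and edgeR was used (version 4.0.16, R 4.3.3). It was run with TMM factors and 1 quasi-likelihood model of group over all 15 samples, with Benjamini-Hochberg adjustment over 10276 genes and a threshold of 0.05. DESeq2 was version 1.42.0. The SE was taken as log2 fold change / √F. Each library's slope on exonic GC content (NCBIM37, available for 95.7% of tested genes) defined the library sets. The GC offset was a lowess fit with span 0.3. The scripts were tested on simulated data.

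Members and lists were chosen with earlier results of these data known. Named members were those with an adjusted p under 0.05 in any comparison, a fixed list of 14 members and those under the count filter. In the lists of other deubiquitinases and cofactors, genes that passed at 135 or 405 min were named, up to 8 per list. Replicate numbers did not pair the samples: deviations of same-numbered samples had a mean correlation of -0.11 over 19 pairs. Sampling alone gives 10 counts a relative error of 31.6% and 1000 counts 3.16%. The 2 symbols left out are not reported here.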

Additional observations from a re-analysis of the deposited data

Results flagged for a closer look

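In groups of 4 or 5 samples, 24 members in 48 groups were examined for a single sample apart from the rest, and 3 samples were found, where chance gives about 1 in 20 groups. Control replicate 3, the shallowest library, stood above the other controls for Usp12 at 98.8 CPM. At 405 min replicate 3, the only one of library set 1, stood below the others for Usp5 at 265 CPM, and it was still above every control. Replicate 2 stood above the other 405-min samples for Usp6nl at 49.8 CPM, within the range of the controls.

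For 4 members the change from control differed between 135 and 405 min by a test of the difference itself in edgeR. The log2 difference, 405 min minus 135 min, was 1.31 for Usp19, 1.71 for Usp20, -0.72 for Usp31 and 0.58 for Usp53. All 135-min samples belonged to library set 1 and 3 of the 4 405-min samples to set 2, and with the library set as a term the differences of Usp31 and Usp53 passed and those of Usp19 and Usp20 did not.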

How the results depend on the processing

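Of 28 values for single genes under 27 other settings, 550 kept direction and side of the threshold, 158 lost the threshold, 22 passed it and 20 turned sign. Usp14 and Usp3 passed at 405 min in 26 of 27 settings, Usp5 and Usp19 in 25, Usp20 and Usp1 in 24, and the other called members in 9 to 17. The cause of the shifts was not tested. Library set 1 alone has 1 sample at 405 min and set 2 alone 1 control, each assumed to vary like the other groups.

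Counts of members called at 135 min (0) came to 4 with DESeq2, 3 with the library set as a term, 3 within set 1 and 2 with the replicate block and the set. Members up at 405 min (8) numbered 5 with no filter, 5 with only the groups compared, 5 with the replicate block, 0 within set 1 and 3 within set 2. Members down (5) numbered 2 with no filter, 1 with only the groups compared, 0 with the replicate block, 1 with the set as a term, 0 within set 1, 0 within set 2, 1 with the block and GC offset and 1 with the block and set. Between 135 and 405 min (4) they were 10 with DESeq2, 2 with edgeR's filterByExpr, 2 with no filter, 15 with only the groups compared, 0 with the replicate block, 0 within set 1, 8 with the GC offset, 2 with the block and GC offset and 2 with the block and set. The F-test over time (7) gave 13 with DESeq2, 1 with the replicate block and 1 within set 1. The block rests on numbers that did not pair the samples. The share of all genes called moved with the setting too. Between 135 and 405 min it was 5.06% with group alone, 14.3% with DESeq2, 8.54% with the GC offset and 0.146% with the replicate block. At 405 min 3.24% of all genes were up and 4.54% down with the replicate block. Shares for the other filters and for only the groups compared are not given here.

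Leaving out 1 library in turn gave 0 to 0 members at 45 min, 0 to 2 at 135 min, 5 to 12 up and 1 to 10 down at 405 min, 0 to 11 between 135 and 405 min and 2 to 18 over time. The most calls came without control replicate 2 (12 up, 10 down and 18 over time) and without 405-min replicate 3 (8 up, 10 down). Between 135 and 405 min most came without control replicate 3 (11). The share of all genes called in each of these refits is not given here, so the counts cannot be set against it. Without 405-min replicate 4 there were 5 up, 1 down and 2 over time, without 405-min replicate 2 there were 5 up and 1 down, and without control replicate 4 there were 6 up and 1 down.

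Values that turned sign at 405 min belonged to members that did not pass. Usp10 was at -0.02 with the set as a term, -0.05 within set 1, -0.14 within set 2 and -0.02 with the block and set. Usp2 was at -0.13, -0.08, -0.12 and -0.06 in the same order. Usp7 was at 0.13 with the set as a term, within set 1, within set 2 and with the GC offset, 0.16 with the block and GC offset and 0.17 with the block and set. Within set 2 Usp15 was at 0.12, Usp22 at -0.09, Usp8 at 0.00 and Usp6nl at 0.09, and Usp6nl was at 0.03 under the GC offset, or 0.02 once the block was added. Set 2 held no 135-min sample, and the fits of set 2 or of only the groups compared gave no F-test over time. Depth limits the 7 members under the count filter, of which no change can be read.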

Other observations

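With the library set as a term, 3 genes of the other lists were called at 135 min. They were 1 of 12 cofactors (8.33%) and 2 of 31 genes of the other deubiquitinase classes (6.45%). These shares were close to the 7.93% of all genes. Psmd2, the proteasome subunit that carries Usp14, was higher (log2 fold change 0.50, adjusted p = 0.0342 by edgeR), while Cyld, which takes linear ubiquitin chains apart (-0.74, adjusted p = 0.0171), and Stambpl1, an endosomal protease (-0.64, adjusted p = 0.0186), were lower. With group alone in the model these values were 0.41, -0.67 and -0.59, and none of the 3 passed (adjusted p = 0.375, 0.219 and 0.174).

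Usp52, the Pan2 subunit of a poly(A) nuclease, was singled out after its values were seen, as the member with the lowest fitted value at 135 min. It had 5.49, 12.2, 13.7, 7.51 and 15 CPM in the controls, 7.63, 11.2 and 14.7 CPM at 45 min, 4.72, 4.97 and 6.41 CPM at 135 min, and 15, 11.9, 8.73 and 18.8 CPM at 405 min. The 135-min samples were low but overlapped the lowest control, and the log2 fold change of -0.99 ± 0.35 did not pass (adjusted p = 0.236).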
